A study of Mus musculus with 18 samples.

Results

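The 10 genes described here were followed across mouse livers that differed in MycER activation and in the labelled day: the albumin family (Alb, Afp, Afm and Gc), the plasma carriers Ttr, Trf and Rbp4, the fetal glypican Gpc3, and Zbtb20 and Zhx2, which encode repressors of Afp. They were taken as a named list, with earlier results of these data known, and make up 10 of the 34937 genes in the count tables. The 10 genes passed the filter on low counts, so each entered the test.

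Poly-A RNA was sequenced from the livers of 18 mice, in 6 groups of 3. The liver injury was made with carbon tetrachloride, a toxin of the hepatocytes around the central vein, injected into the abdomen at 0.5 µL per g. In MycER the growth regulator MYC is joined to the ligand-binding part of the estrogen receptor, so that a daily injection of tamoxifen (1 mg) switches it on. In group 12ON livers were taken 12 days after injury with MycER activation. The labels describe groups 1OFF, 2OFF, 3OFF and 7OFF as not activated, at 1, 2, 3 and 7 days from injury, and group 12 as not activated at 12 days. Whether MycER had been active earlier in the OFF mice, whether group 12 received tamoxifen, and the strain, sex and age of the mice and the promoter that drives MycER are not given in the sources used here. It is thus not settled whether the days of the OFF groups run from injury, as labelled, or from the end of an earlier activation, and each OFF comparison is given by its label only.

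Libraries held between 23.1 M and 75.3 M counts. H19, a fetal long non-coding RNA, lay between 17768 and 23309 normalised CPM (read counts scaled to the library's TMM-adjusted size) in 12ON, between 15680.3 and 28002.5 CPM in 1OFF and 2OFF, and between 37.5 and 146 in group 12, so the livers of groups 1OFF and 2OFF stood with 12ON in this gene although labelled as without activation. The mitochondrial chromosome took 6.42% to 7.11% of the counts in 12ON, against 4.80% to 5.25% in group 12. Since these did not overlap, a fit with this share as a covariate cannot separate it from the group in 12ON vs 12. Xist was high in 1 library of each group but 1OFF, which had none. The summed level of 8 hepatocyte markers was between 13412 and 15418 CPM in 12ON, against 22295 and 24044 CPM in group 12, and none of them was at 0 in any library. Nothing in the labels says that mice of a group came from separate litters or cages, so p-values measure the spread between these livers.

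The albumin family arose by gene duplication, and its members encode secreted proteins that bind small molecules in plasma. Hepatocytes of the fetus and newborn secrete alpha-fetoprotein, encoded by Afp, and Afp is shut down after birth. Albumin is the main plasma protein that adult hepatocytes secrete. In mice the zinc finger proteins ZBTB20 and ZHX2 hold Afp down in the adult liver, and ZHX2 also acts on H19 and Gpc3.

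In GRCm38 the 4 family genes lie on chromosome 5. Gc occupies bases 89417522 to 89457898 on the minus strand. Alb (90460897 to 90476602), Afp (90490737 to 90508907) and Afm (90518932 to 90553543) follow on the plus strand, with 14.1 kb between Alb and Afp, 10.0 kb between Afp and Afm and 1003.0 kb between Gc and Alb. RefSeq promoter windows of 300 bases, from 250 before to 50 after the annotated start, were found for 7 of the 10 genes in GRCm38.p6. The 4 family windows are shown because they share the motif GTTAATNAT, in capitals, on the strand of the gene. Each is written 5′ to 3′, from chr5:89457849-89458148 (minus strand), chr5:90460620-90460919, chr5:90490464-90490763 and chr5:90518699-90518998:
Gc: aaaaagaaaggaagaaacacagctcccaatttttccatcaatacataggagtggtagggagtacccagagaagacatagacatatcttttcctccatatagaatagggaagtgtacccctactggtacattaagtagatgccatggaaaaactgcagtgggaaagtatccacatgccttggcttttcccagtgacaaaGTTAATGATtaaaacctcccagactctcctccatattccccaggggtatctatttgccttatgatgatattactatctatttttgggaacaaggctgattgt
Alb: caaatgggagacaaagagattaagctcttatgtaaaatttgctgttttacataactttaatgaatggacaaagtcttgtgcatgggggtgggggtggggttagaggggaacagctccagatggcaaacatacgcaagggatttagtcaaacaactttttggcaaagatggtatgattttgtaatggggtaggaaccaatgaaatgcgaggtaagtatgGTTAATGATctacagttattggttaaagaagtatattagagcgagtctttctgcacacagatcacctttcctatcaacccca
Afp: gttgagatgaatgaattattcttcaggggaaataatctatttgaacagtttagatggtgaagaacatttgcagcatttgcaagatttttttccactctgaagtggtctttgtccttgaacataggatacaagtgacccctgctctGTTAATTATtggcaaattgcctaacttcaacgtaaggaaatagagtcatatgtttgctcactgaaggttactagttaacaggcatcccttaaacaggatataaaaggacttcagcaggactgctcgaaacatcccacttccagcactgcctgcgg
Afm: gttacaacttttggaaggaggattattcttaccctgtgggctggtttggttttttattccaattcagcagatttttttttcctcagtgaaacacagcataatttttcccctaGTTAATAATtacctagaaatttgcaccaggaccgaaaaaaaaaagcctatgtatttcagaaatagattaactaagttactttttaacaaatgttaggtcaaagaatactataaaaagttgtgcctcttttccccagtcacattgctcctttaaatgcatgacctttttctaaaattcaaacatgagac

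The first base of the match stood at -52 in Gc, -32 in Alb, -105 in Afp and -138 in Afm, counted from the RefSeq start site. On either strand, 0.801% of 32851 promoter windows of the same length held this motif, while its shorter part GTTAAT was in 7.1% of them. The windows of Rbp4, Gpc3 and Zbtb20 held neither. These are matches of letters, and binding was not measured.

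Livers of 12ON were compared with those of group 12, which differ in MycER activation at the same day. Alb, Afm and Gc were lower in 12ON, and Afp was higher. Ttr and Trf were lower, Rbp4 did not pass the test, Gpc3 was higher, and of the repressors Zhx2 was slightly lower while Zbtb20 did not pass. In all, 2 of the 10 genes were called higher and 6 lower at an adjusted p under 0.05 in edgeR's quasi-likelihood test (Benjamini-Hochberg over 17789 genes), where 24% of all tested genes were called higher and 22.6% lower. The median log2 fold change of the 10 genes was -0.58, against -0.0047 over all genes. Scaled to library totals in place of TMM, the median of all genes moved to 0.49, and 9126 genes were called higher and 1405 lower, against 4269 and 4029 with TMM. Changes below are thus relative to the bulk of genes, and in bulk liver fewer cells of a type and less RNA per cell cannot be told apart.

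Alb, the main protein of plasma, had 27566, 21606 and 22926.5 normalised CPM in 12ON livers, against 95863, 88427 and 91297 CPM in group 12. The groups lay far apart, with a log2 fold change of -1.93 ± 0.23 (SE, adjusted p = 9.99e-06 by edgeR). Afm encodes afamin, a carrier of vitamin E, and had 109, 105 and 122 CPM in 12ON against 419, 413 and 442 CPM in group 12. The change in Afm, -1.92 ± 0.16 (log2) (adjusted p = 7.06e-07 by edgeR), was of nearly the same size as that of Alb. An antisense gene, Gm42109, shares an exon with Afm, and without strand their reads cannot be told apart.

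Gc, the vitamin D-binding protein, fell less. It had 4265, 3925 and 4099 CPM in 12ON and 6771, 7028 and 5953 CPM in group 12, with no overlap and a log2 fold change of -0.68 ± 0.13 (adjusted p = 0.000434 by edgeR). Scaled to library totals its log2 fold change was -0.19 and the call ended (adjusted p = 0.131).

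Afp moved the other way and varied more between livers. It had 118, 30.05 and 65.2 CPM in 12ON and 7.57, 8.86 and 10.25 CPM in group 12. Every 12ON liver lay above every liver of group 12, although the 12ON livers were far apart among themselves. The log2 fold change was 2.99 ± 0.72 (adjusted p = 0.00321 by edgeR). With the mitochondrial share as a covariate it was 2.90 and no longer passed (adjusted p = 0.0578).

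Compared per kb of exon, the order of levels changed little at its top. In 12ON the mean level was 10262 CPM per kb for Alb, 4504 for Trf, 2220.4 for Gc, 920.0 for Rbp4, 919 for Ttr and 36.8 for Afm. In group 12 it was 39224 for Alb, 8490.0 for Trf, 3569 for Gc, 3319 for Ttr, 1167.5 for Rbp4 and 139.8 for Afm. Afp had 21.1 ± 13.1 CPM per kb in 12ON, above Zhx2 (2.53 ± 0.12) and Zbtb20 (2.25 ± 0.16), and 2.64 ± 0.40 in group 12, beside Zhx2 (3.54 ± 0.91) and Zbtb20 (2.54 ± 0.49; SD, n = 3). In group 12 these 3 genes thus differed per kb by less than the sum of their SDs. This rests on the exon lengths, 30730 bases for Zbtb20, 4434 for Zhx2 and 3368 for Afp. Not per kb, Zbtb20 had 78.05 ± 15.04 CPM in group 12, Zhx2 15.7 ± 4.02 and Afp 8.89 ± 1.34 (SD, n = 3).

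Among the carriers, Ttr encodes transthyretin, which carries thyroxine and the retinol-binding protein. It had 1144, 1081 and 1135 CPM in 12ON and 4179, 2879 and 5079 CPM in group 12, where the livers were more uneven, and its log2 fold change was -1.85 ± 0.22 (adjusted p = 1.17e-05 by edgeR). Trf, the iron carrier transferrin, had 15137, 13333 and 16392 CPM in 12ON and 29238, 29397 and 25925 CPM in group 12. The groups did not overlap, and its log2 fold change was -0.91 ± 0.20 (adjusted p = 0.00187 by edgeR). It was -0.42 (adjusted p = 0.0587) on library totals and -0.62 (adjusted p = 0.155) with the mitochondrial share as a covariate. Gm20425 shares exon with Trf on the same strand and had 13749, 12014 and 14768 CPM in 12ON and 26424, 26594 and 23388 CPM in group 12. Their reads cannot be told apart, so the level of Trf is uncertain. Ttr also shares exon with an antisense gene, Gm16090, but that gene had only 6.17 to 11.02 CPM over all livers. Rbp4, the retinol-binding protein, had 1218, 1203 and 1159 CPM in 12ON, just below the 1476, 1460.4 and 1606 CPM of group 12. The log2 fold change of -0.34 ± 0.19 did not pass (adjusted p = 0.147 by edgeR) and had the opposite sign, 0.15, on library totals.

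Gpc3 encodes a heparan sulfate proteoglycan of the cell surface that is made in fetal liver and again in liver cancers. It had 3.68, 9.91 and 9.83 CPM in 12ON and 1.19, 1.57 and 2.22 CPM in group 12. All 12ON livers lay higher, the first of them by little, and the log2 fold change was 2.19 ± 0.69 (adjusted p = 0.0165 by edgeR). The call ended without replicate 1 of group 12 (2.03, adjusted p = 0.0578), without its replicate 2 (2.14, adjusted p = 0.0523), without 12ON replicate 2 (1.99, adjusted p = 0.0504), and with the mitochondrial share as a covariate (1.14, adjusted p = 0.449). Gpc3 is on the X chromosome, and in groups 12ON, 12, 2OFF and 7OFF the library with high Xist had the highest Gpc3, which was not so in 3OFF. The part of this in the difference was not tested beyond the next fit. With a term for Xist the log2 fold change was 2.27 (adjusted p = 0.0057).

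The repressors changed little. Zhx2 had 11.6, 11.5 and 10.6 CPM in 12ON and 19.8, 15.5 and 11.8 CPM in group 12, where the lowest liver nearly met the 12ON livers. Its log2 fold change was -0.48 ± 0.15 (adjusted p = 0.0148 by edgeR). Without replicate 1 of group 12 it was -0.28 (adjusted p = 0.104), with the 2 groups fitted alone -0.47 (adjusted p = 0.0621), with the mitochondrial share as a covariate -0.36 (adjusted p = 0.274), and on library totals 0.03 (adjusted p = 0.871). Zbtb20 had 72.6, 71.4 and 63.4 CPM in 12ON, within the range of 95.4, 69.8 and 68.9 CPM in group 12 but for 1 liver. Its log2 fold change was -0.17 ± 0.28 (adjusted p = 0.635 by edgeR), with positive values of 0.32 on library totals and 0.24 with the mitochondrial share as a covariate.

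**Figure D1:**
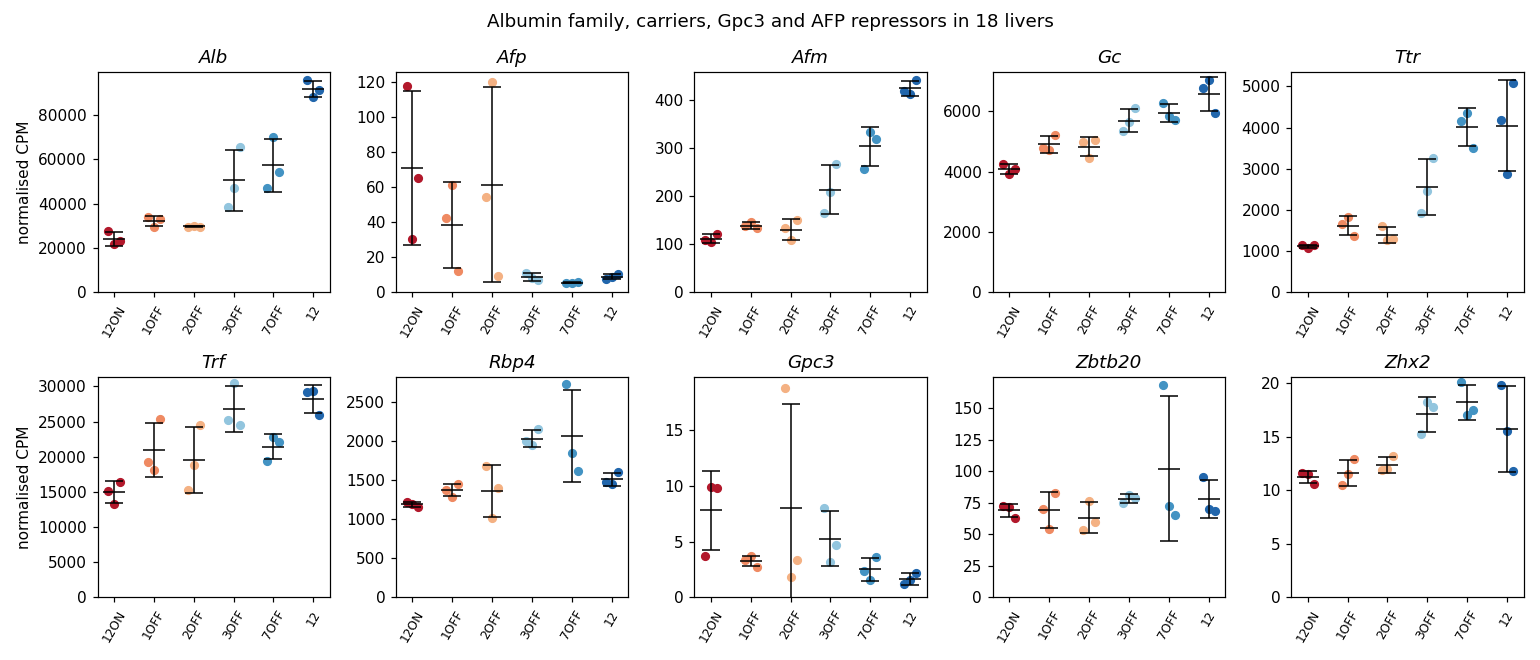
Normalised CPM of the 10 genes (y axis, linear, a scale for each gene) in groups 12ON, 1OFF, 2OFF, 3OFF, 7OFF and 12 (x axis); points are livers and bars the mean and SD of 3. Alb and Afm lie lowest in 12ON and highest in group 12, Afp spans 30.05 to 118 CPM in 12ON and stays under 12 CPM in 3OFF, 7OFF and 12, and 1 liver of 7OFF stands apart in Zbtb20.

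The OFF groups were compared with 12ON. In 1OFF and 2OFF none of the 10 genes was called by edgeR's quasi-likelihood test, where 0.00562% and 0% of all tested genes were called. At an unadjusted p under 0.05 there were 2 of the 10 genes in 1OFF (Ttr and Trf, both higher) and 0 in 2OFF, beside 2568 and 3039 of all genes, and DESeq2 called 0 of the 10 in either. In 3OFF and in 7OFF, 7 of the 10 were called higher and 1 lower. Of all tested genes 15.3% were called higher and 17% lower in 3OFF, and 21.4% higher and 22.7% lower in 7OFF. On library totals the median of all genes was -0.31 in 3OFF and -0.41 in 7OFF, with 952 genes called higher and 6520 lower in 3OFF and 1350 higher and 8202 lower in 7OFF. The 4 comparisons share the 12ON livers. Cell type markers moved too: in 3OFF vs 12ON all 8 cholangiocyte markers were lower (76.3 to 89.8 CPM in sum in 3OFF, 210 to 223 CPM in 12ON), all 8 endothelial markers higher (294 to 357 CPM in 3OFF, 193 to 208 CPM in 12ON) and 6 of 8 hepatocyte markers higher (19651 to 23680.1 CPM in 3OFF, 13412 to 15418 CPM in 12ON). In the same comparison 2 Kupffer and 2 lymphocyte markers were higher and 2 stellate markers lower, and no marker of any list was called in 1OFF or 2OFF by edgeR.

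Alb had 33998, 29524.5 and 33052 CPM in 1OFF and 29686, 29858 and 29534 CPM in 2OFF, each liver above those of 12ON. It had 38732.5, 47279.9 and 65516.5 CPM in 3OFF and 47201, 70346 and 54315 CPM in 7OFF. The log2 fold change over 12ON was 0.42 ± 0.22 in 1OFF (adjusted p = 0.403), 0.31 ± 0.22 in 2OFF (adjusted p = 0.523), 1.07 ± 0.22 in 3OFF (adjusted p = 0.00216) and 1.25 ± 0.22 in 7OFF (adjusted p = 0.000359, edgeR). In the order of group means, 3OFF and 7OFF differed by less than the sum of their SDs, as did 1OFF and 2OFF, and no 7OFF liver reached group 12.

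Afm followed with 137, 146 and 134 CPM in 1OFF, 133, 109 and 150 in 2OFF, 164, 209 and 267 in 3OFF and 258, 334 and 319 in 7OFF. Its log2 fold change over 12ON was 0.93 ± 0.16 in 3OFF (adjusted p = 0.000592 by edgeR) and 1.44 ± 0.16 in 7OFF (adjusted p = 9.02e-06). Gc lay at 4785, 4701 and 5216 CPM in 1OFF and at 4975, 4464 and 5035 CPM in 2OFF. In 3OFF its livers had 5357, 5628 and 6091 CPM, and in 7OFF 6277, 5855 and 5709 CPM. It was higher than in 12ON by 0.47 ± 0.13 (log2) in 3OFF (adjusted p = 0.0101 by edgeR; 0.43 and adjusted p = 0.0517 without 12ON replicate 2) and by 0.54 ± 0.13 in 7OFF (adjusted p = 0.003), values that were 0.15 and 0.12 on library totals and did not pass there.

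Afp was scattered in the early OFF groups and low in the later ones. It had 42.3, 60.9 and 11.9 CPM in 1OFF and 54.4, 119.9 and 9.47 CPM in 2OFF, so that each of these groups held 1 liver near the level of group 12, the others lying within the 12ON range or just above it. It had 11.15, 8.16 and 6.86 CPM in 3OFF and 5.38, 4.96 and 5.56 CPM in 7OFF, all below 12ON. The log2 fold change over 12ON was -0.88 ± 0.66 in 1OFF (adjusted p = 0.593), -0.21 ± 0.66 in 2OFF (adjusted p = 0.914), -3.02 ± 0.72 in 3OFF (adjusted p = 0.00507) and -3.74 ± 0.75 in 7OFF (adjusted p = 0.000906, edgeR).

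Of the carriers, Ttr had 1659, 1833 and 1362 CPM in 1OFF and 1619, 1269.8 and 1291 CPM in 2OFF, all above 12ON, then 1920.0, 2455 and 3269 CPM in 3OFF and 4169, 4366 and 3495 CPM in 7OFF. The log2 fold change over 12ON was 1.19 ± 0.22 in 3OFF (adjusted p = 0.000991) and 1.84 ± 0.22 in 7OFF (adjusted p = 1.66e-05, edgeR). Trf had 25276, 30460.4 and 24507 CPM in 3OFF and 19403, 22808 and 22101 CPM in 7OFF, the later group being the lower. Its log2 fold change over 12ON was 0.84 ± 0.20 in 3OFF (adjusted p = 0.00598 by edgeR) and 0.52 ± 0.20 in 7OFF. The 7OFF value stood at the threshold (adjusted p = 0.0497) and lost its call on library totals (0.11), with no filter (0.51), with the mitochondrial covariate (0.35) and with the 2 groups fitted alone (0.51). The call also ended without any 1 of the 12ON replicates 1, 2 and 3 (0.51, 0.43 and 0.58) or without 7OFF replicate 2 (0.47) or 3 (0.50). Rbp4 had 1999, 1949.6 and 2153 CPM in 3OFF and 2738.5, 1849 and 1621 CPM in 7OFF, above 12ON and also above group 12. Its log2 fold change over 12ON was 0.77 ± 0.19 in 3OFF (adjusted p = 0.00616) and 0.79 ± 0.19 in 7OFF (adjusted p = 0.00316, edgeR; 0.35 and adjusted p = 0.0763 on library totals).

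Gpc3 did not pass in any OFF group against 12ON. It had 3.33, 3.70 and 2.76 CPM in 1OFF, 18.8, 1.84 and 3.38 CPM in 2OFF, 8.01, 3.14 and 4.72 CPM in 3OFF and 2.38, 1.58 and 3.59 CPM in 7OFF. All 7OFF livers lay below 12ON, with a log2 fold change of -1.63 ± 0.66 (adjusted p = 0.0577 by edgeR). That value passed with DESeq2 (-1.64, adjusted p = 0.0434), on library totals (-2.05, adjusted p = 0.0174), with the 2 groups fitted alone (-1.64, adjusted p = 0.0243), with a term for Xist (-1.70, adjusted p = 0.0234) and without 12ON replicate 1 (-1.99, adjusted p = 0.0347).

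Zhx2 had 10.5, 11.6 and 12.9 CPM in 1OFF and 11.9, 12.0 and 13.2 CPM in 2OFF, close to 12ON. It had 15.2, 18.3 and 17.8 CPM in 3OFF and 20.1, 17.1 and 17.5 CPM in 7OFF, all above 12ON, with log2 fold changes of 0.60 ± 0.15 (adjusted p = 0.00558) and 0.70 ± 0.15 (adjusted p = 0.00129, edgeR). On library totals these were 0.28 (adjusted p = 0.0963) and 0.27 (adjusted p = 0.09). Zbtb20 lay between 53.5 and 83.0 CPM in the livers of 1OFF and 2OFF, between 74.6 and 81.5 CPM in those of 3OFF, and at 169, 72.4 and 65.6 CPM in 7OFF. In 7OFF over 12ON the log2 fold change was 0.56 ± 0.28 and did not pass (adjusted p = 0.112 by edgeR). It was -0.005 without 7OFF replicate 1, the liver that stands apart, and passed without 7OFF replicate 2 (0.76, adjusted p = 0.0489) or 3 (0.80, adjusted p = 0.0276).

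**Figure D2:**
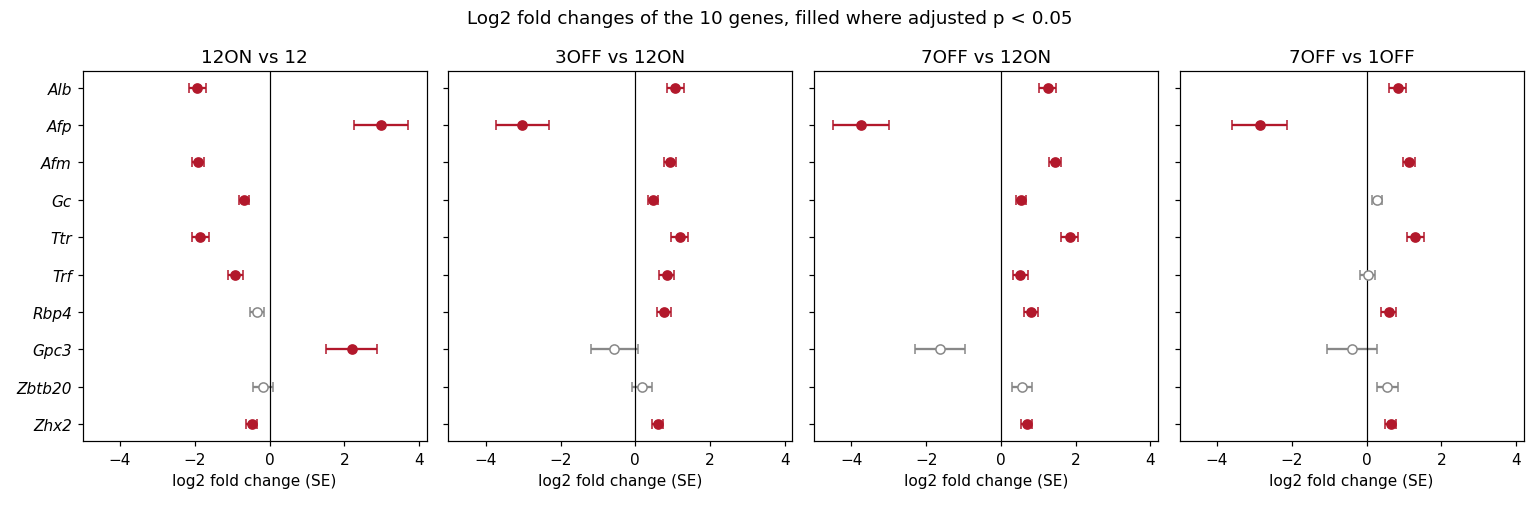
Log2 fold changes (x axis) with SE of the 10 genes (rows) in 12ON vs 12, 3OFF vs 12ON, 7OFF vs 12ON and 7OFF vs 1OFF, 3 livers a group; filled red points passed edgeR's test at an adjusted p under 0.05. In 12ON vs 12, Alb, Afm and Ttr lie between -1.93 and -1.85 and Afp at 2.99, and in 7OFF vs 12ON they lie between 1.25 and 1.84 and Afp at -3.74.

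The OFF groups were also set against group 12, which they share. In 1OFF 1 of the 10 genes was called higher (Afp) and 5 lower (Alb, Afm, Ttr, Gc and Zhx2), where 17.1% of all tested genes were called higher and 16.3% lower. In 2OFF 2 were called higher (Afp and Gpc3) and 4 lower (Alb, Afm, Ttr and Gc), where 18.1% and 17% were. In 3OFF 0 were called higher and 3 lower (Alb, Afm and Ttr), where 9.47% and 7.95% were. In 7OFF edgeR called none, where 5.77% of all tested genes were called. At an unadjusted p under 0.05 there were 3 of the 10 in 7OFF, beside 3901 of all 17789 tested genes. DESeq2 called 2 of the 10 there, beside 1678 of all genes. On library totals the split of all called genes was 6774 higher and 1018 lower in 1OFF, 7313 and 1138 in 2OFF, 2990 and 667 in 3OFF, and 589 and 361 in 7OFF. With TMM it was 3036 and 2903, 3218 and 3018, 1685 and 1414, and 439 and 588. Of 8 markers each, 7 cholangiocyte markers were higher and 6 endothelial and 5 hepatocyte markers lower in 1OFF vs 12, and 4, 6 and 5 in 2OFF vs 12. In both, 3 stellate markers and 1 hepatocyte marker were higher, and 4 Kupffer and 4 lymphocyte markers lower. In 3OFF vs 12 there were 3 cholangiocyte markers and 1 hepatocyte marker higher and 3 endothelial markers lower, and in 7OFF vs 12 1 cholangiocyte and 1 hepatocyte marker higher and 5 Kupffer markers lower.

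Over group 12 the log2 fold change of Alb was -1.51 ± 0.22 in 1OFF, -1.63 ± 0.23 in 2OFF, -0.86 ± 0.22 in 3OFF and -0.68 ± 0.22 in 7OFF, the last with an adjusted p = 0.0833 by edgeR. All livers of the 4 groups lay below those of group 12. The call in 3OFF ended without 3OFF replicate 1 (-0.70, adjusted p = 0.0671), with the mitochondrial covariate (-0.89, adjusted p = 0.146) and with the 2 groups fitted alone (-0.87, adjusted p = 0.109). Afm stood at -1.61 ± 0.16, -1.70 ± 0.16, -0.99 ± 0.16 and -0.48 ± 0.16 in 1OFF, 2OFF, 3OFF and 7OFF, with an adjusted p = 0.0845 in 7OFF. Ttr was at -1.32 ± 0.22, -1.54 ± 0.22 and -0.67 ± 0.22 in the first 3 groups and at -0.01 ± 0.22 in 7OFF. In 3OFF it passed narrowly (adjusted p = 0.045 by edgeR), and the call ended on library totals (-0.52), with no filter (-0.66), with the mitochondrial covariate (-0.86), with the 2 groups fitted alone (-0.67), and without replicate 1 or 3 of group 12 (-0.64 and -0.47) or 3OFF replicate 1 or 2 (-0.50 and -0.64).

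Gc was lower than in group 12, with a log2 fold change of -0.43 ± 0.13 in 1OFF (adjusted p = 0.0173 by edgeR) and -0.45 ± 0.13 in 2OFF (adjusted p = 0.0123). Both calls ended on library totals (-0.08 and -0.09), with the mitochondrial covariate (-0.36 and -0.38) and with the 2 groups fitted alone (-0.42 and -0.45), and that in 1OFF also without 1OFF replicate 1 (-0.41) or 2 (-0.40). Zhx2 in 1OFF (-0.43 ± 0.15, adjusted p = 0.0362 by edgeR) lost its call in the same 3 fits (-0.08, -0.31 and -0.42), and without replicate 1 or 2 of group 12 (-0.23 and -0.43) or 1OFF replicate 1 or 2 (-0.36 and -0.42).

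Afp was higher than in group 12 by 2.11 ± 0.70 in 1OFF (adjusted p = 0.0308 by edgeR) and 2.77 ± 0.72 in 2OFF (adjusted p = 0.00733), and at -0.03 ± 0.69 in 3OFF and -0.76 ± 0.71 in 7OFF. The call in 1OFF ended without replicate 1, 2 or 3 of group 12 (2.01, 2.10 and 2.23), without 1OFF replicate 1 or 2 (2.03 and 1.61), with a term for Xist (1.95) and with the mitochondrial covariate (1.99). That in 2OFF ended without 2OFF replicate 2, the liver at 119.9 CPM (1.83, adjusted p = 0.0546), and with the mitochondrial covariate (2.67). Gpc3 in 2OFF was higher than in group 12 by 2.25 ± 0.69 (adjusted p = 0.0195 by edgeR). This rested on 2OFF replicate 1, at 18.8 CPM, without which it was 0.62 (adjusted p = 0.369), and the call also ended without replicate 1 or 2 of group 12 (2.08 and 2.19), with the mitochondrial covariate (1.22) and with the 2 groups fitted alone (2.25, adjusted p = 0.0857).

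Between the last and the first OFF day, 7OFF vs 1OFF, 5 of the 10 genes were called higher and 1 lower, where 14.8% of all tested genes were called higher and 15.8% lower (956 higher and 5259 lower on library totals, against 2641 and 2806 with TMM). Ttr was higher by 1.31 ± 0.22, Afm by 1.13 ± 0.16, Alb by 0.83 ± 0.22, Zhx2 by 0.65 ± 0.15 and Rbp4 by 0.59 ± 0.19, while Afp was lower, at -2.86 ± 0.73 (log2, adjusted p = 0.00799 by edgeR). Rbp4 lost its call without 1OFF replicate 1, 2 or 3 (0.59, 0.55 and 0.63), without 7OFF replicate 1 (0.33, adjusted p = 0.163), on library totals (0.30), with the mitochondrial covariate (0.54) and with the 2 groups fitted alone (0.58). Alb lost its call without 7OFF replicate 2 (0.66, adjusted p = 0.0508) and with the 2 groups fitted alone (0.82), and Afp with the mitochondrial covariate (-2.79, adjusted p = 0.0504). Gc (0.28 ± 0.13) and Trf (0.03 ± 0.20) did not pass.

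The ratio of Alb to Afp per kb of exon sets the 2 genes side by side within each liver and does not depend on the scaling. It was 337, 1034 and 506 in 12ON, against 18201, 14361 and 12809 in group 12. Over the OFF days it was 1155, 698 and 3989 in 1OFF, 785, 358 and 4483 in 2OFF, 4995, 8332 and 13742 in 3OFF and 12620.0, 20400.0 and 14053 in 7OFF. The 3 livers of 12ON lay at least an order of magnitude below group 12, 2 livers each of 1OFF and 2OFF lay near them, and those of 7OFF spanned the range of group 12. The ratio of Alb to Gc per kb moved less. It was close among the livers of 12ON, 1OFF and 2OFF, and spread more in 3OFF and 7OFF. Its lowest and highest values were 4.34 and 5.09 in 12ON, 4.95 and 5.60 in 1OFF, and 4.62 and 5.27 in 2OFF. They were 5.70 and 8.47 in 3OFF, 5.92 and 9.46 in 7OFF, and 9.91 and 12.1 in group 12. Afp also varied on its own: in 2OFF Alb had an SD of 162 CPM around a mean of 29693 CPM while Afp ran from 9.47 to 119.9 CPM in the same livers.

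**Figure D3:**
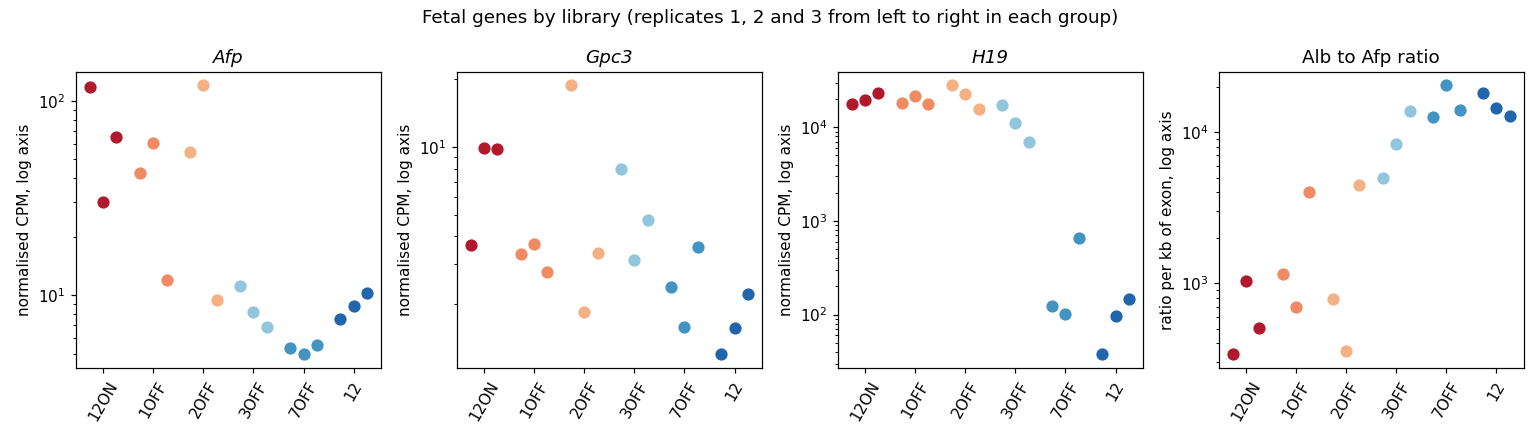
Afp, Gpc3 and H19 in normalised CPM and the Alb to Afp ratio per kb of exon (y axes, all log) in each liver of groups 12ON, 1OFF, 2OFF, 3OFF, 7OFF and 12 (x axis); a point is a liver. In 3OFF Afp is at 6.86 to 11.15 CPM, within or near group 12, while H19 is still at 6919 to 17289.8 CPM, and the Afp-high 2OFF liver (119.9 CPM) has Gpc3 at 1.84 CPM.

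Genes around the albumin family were looked at within 1 Mb on either side of Gc to Afm (88417522 to 91553543 on chromosome 5). Of 44 annotated genes 28 were tested, and of the 24 outside the family 5 were called higher and 4 lower in 12ON vs 12. The shares of all tested genes called higher and lower were 24% and 22.6% in 12ON vs 12, and 21.4% and 22.7% in 7OFF vs 12ON. The neighbours that were lower included Gm42109 (-1.85 ± 0.15, which shares an exon with Afm), Gm43449 (-2.83 ± 0.49, which overlaps Afp but shares no exon with it), 5830473C10Rik (-0.68 ± 0.27) and the chemokine gene Cxcl1 (-2.47 ± 0.54). Those that were higher were Rassf6 (0.80 ± 0.12), Btc (0.70 ± 0.20), Dck (0.69 ± 0.16), Mthfd2l (0.43 ± 0.13) and Ankrd17 (0.40 ± 0.07). Dck encodes a kinase of nucleotide salvage and Btc a ligand of the EGF receptor. The genes between Gc and Alb (Adamts3, Cox18, Ankrd17 and Gm9958) lay between -0.18 and 0.40, and those next to Gc on its other side, Slc4a4 and Dck, at -0.27 and 0.69. Jchain, Utp3, Rufy3, Grsf1, Mob1b, Cxcl5, Ppbp, Pf4, Cxcl2, Ereg and Gm19619 did not pass, with values between -1.14 and 1.15. In 7OFF vs 12ON 5 of the 24 were called higher and 7 lower, among them Gm42109 at 1.30 and Gm43449 at 2.49, while Cxcl1 was at 0.24 (adjusted p = 0.741 by edgeR).

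**Figure D4:**
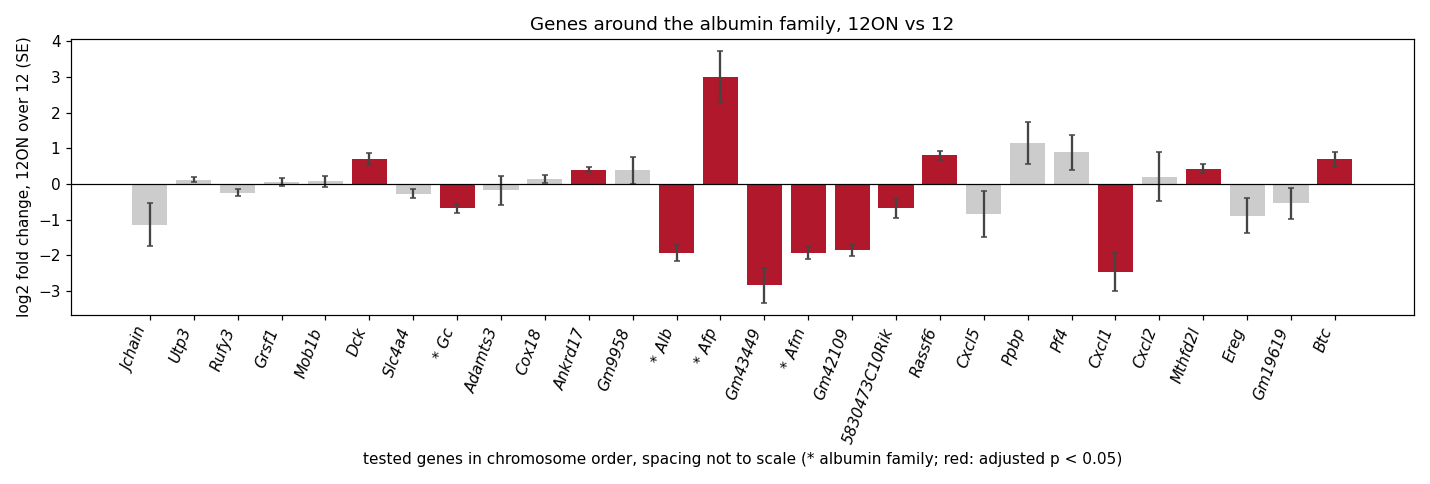
Log2 fold changes with SE in 12ON vs 12 (y axis) of the 28 tested genes around the albumin family in chromosome order (x axis, spacing not to scale, family genes starred), 3 livers a group; red bars passed edgeR's test at an adjusted p under 0.05. Alb and Afm at -1.93 and -1.92 stand on either side of Afp at 2.99.

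Other regulators of Alb and Afp were listed beside the repressors. Of 22 tested, 2 were called higher and 10 lower in 12ON vs 12, where 24% and 22.6% of all tested genes were. The median log2 fold change of the 22 was -0.41. Hnf4a, the hepatocyte nuclear receptor, averaged 452 ± 38.7 CPM in 12ON and 778 ± 79.0 CPM in group 12 (log2 fold change -0.78 ± 0.13), and Cebpa, a leucine zipper factor of differentiated hepatocytes, 238 ± 22.5 CPM in 12ON, against 405 ± 91.98 CPM in group 12 (-0.77 ± 0.20; SD of levels, n = 3). Tcf7l2, a partner of beta-catenin, was at -0.47 ± 0.12. Trp53, which encodes p53, a repressor of Afp in mice, was higher at 0.91 ± 0.18, and Ctnnb1, beta-catenin itself, at 0.26 ± 0.10 (adjusted p = 0.0491 by edgeR). In 7OFF vs 12ON 9 of the 22 were called higher and 1 lower, where 21.4% and 22.7% of all tested genes were. Hnf4a stood there at 0.81 ± 0.13, Cebpa at 1.04 ± 0.20 and Trp53 at -0.77 ± 0.18.

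Of 10 tested genes reported as targets of ZHX2 or ZBTB20, 3 were called higher and 2 lower in 12ON vs 12 (median 0.18). Among all tested genes 24% were called higher and 22.6% lower there, and 21.4% and 22.7% in 7OFF vs 12ON. H19 was higher by 7.76 ± 0.80, Lpl, the lipoprotein lipase that adult hepatocytes hold low, by 2.78 ± 0.28, and Mup20, a urinary protein gene, by 2.98 ± 1.00. Mup3 (-4.27 ± 0.79) and Cyp2a4 (-3.27 ± 0.66), a cytochrome P450 gene, were lower. Reads of the Mup and Cyp2a genes can be split among near-identical copies, so these values are uncertain. In 7OFF vs 12ON 4 of the 10 were called higher and 3 lower, with Lpl at -1.97 ± 0.27 and H19 at -6.09 ± 0.74, whereas in 3OFF vs 12ON neither passed (-0.61 and -0.79, adjusted p = 0.0888 and 0.333 by edgeR). Mup3 (5.78) and Cyp2a4 (2.20) were called higher in 7OFF vs 12ON, and Mup20 (2.34, adjusted p = 0.0625 by edgeR) was not called. Over group 12, Mup20 in 7OFF was higher by 5.32 ± 1.11 (adjusted p = 0.0145 by edgeR), at 3552 ± 4914 CPM (SD, n = 3).

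Of 10 tested fetal liver genes outside the 10 followed here, 7 were called higher and 1 lower in 12ON vs 12 (median 3.21). Among all tested genes 24% were called higher and 22.6% lower there. Igf2, a fetal growth factor, was higher by 7.54 ± 0.80 and Hmga1, a chromatin protein of growing cells, by 3.65 ± 0.30, while Igf2bp2 was lower at -0.92 ± 0.35. In 3OFF vs 12ON 0 were called higher and 3 lower (median -0.71), where 15.3% and 17% of all tested genes were. Igf2 averaged 4287 ± 2683 CPM in 3OFF and 4780 ± 984 CPM in 12ON (SD, n = 3; adjusted p = 0.867 by edgeR), and Hmga1 was lower at -2.03 (adjusted p = 0.000158). There were 6 called lower in 7OFF vs 12ON, where 22.7% of all tested genes were.

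For the next lists, the shares of all tested genes called higher and lower were 24% and 22.6% in 12ON vs 12. They were 21.4% and 22.7% in 7OFF vs 12ON. Among 23 other plasma carriers, 2 were called higher and 19 lower in 12ON vs 12 (median -1.18). The lower ones with the smallest p were Apom (-1.22 ± 0.15), of high-density lipoprotein, Tcn2 (-1.19 ± 0.14), a carrier of vitamin B12, and Pon1 (-2.54 ± 0.37), an esterase on lipoprotein. Igfbp2, which binds insulin-like growth factors, was higher (0.93 ± 0.36), as was Shbg, which binds sex steroids, which averaged 0.89 ± 0.59 CPM in 12ON livers, against 0.011 ± 0.019 CPM in livers of group 12. Of the 23, 12 were called higher and 1 lower in 7OFF vs 12ON. Of 19 genes that take up or process what these proteins carry, 3 were called higher and 9 lower in 12ON vs 12 (median -0.65). Tfrc, the transferrin receptor, was higher by 1.89 ± 0.31, Amn, a partner of cubilin in uptake, by 6.60 ± 0.46, and Lrat, which makes retinyl esters, by 0.48 ± 0.15. B2m, the partner of the receptor that recycles albumin, was lower at -1.34 ± 0.17, Cyp2r1, the vitamin D hydroxylase of the liver, at -1.88 ± 0.23, and Dio1, which converts thyroxine, at -3.48 ± 0.45. In 7OFF vs 12ON 10 of the 19 were called higher and 3 lower, with Tfrc at -1.50 and Dio1 at 3.51. Of 4 tested glypicans other than Gpc3, 2 were lower in 12ON vs 12, Gpc1 at -3.85 ± 0.49 and Gpc4 at -0.84 ± 0.13.

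Marker genes of several other liver cells were called in 12ON vs 12, where 24% of all tested genes were called higher and 22.6% lower. In 7OFF vs 12ON these shares were 21.4% and 22.7%. In 12ON vs 12 all 8 cholangiocyte markers were called higher, with a summed level of 210 to 223 CPM in 12ON and 34.0 to 95.8 CPM in group 12. All 8 sinusoidal endothelial markers were lower (193 to 208 CPM in 12ON, 386 to 438 CPM in group 12), as were 4 of 8 Kupffer markers (817 to 1288 CPM in 12ON, 1442.4 to 1879.5 CPM in group 12) and 4 of 8 lymphocyte markers (3.78 to 5.26 CPM in 12ON, 9.02 to 9.76 CPM in group 12). Of 8 stellate and myofibroblast markers 3 were higher (446 to 471 CPM in 12ON, 300.5 to 381 CPM in group 12). Neither the 8 neutrophil markers (277 to 353 CPM in 12ON, 236 to 361 CPM in group 12) nor the 7 erythroid ones (194 to 568 CPM in 12ON, 225 to 269 CPM in group 12) held a called gene. No list had a marker at 0 in all libraries of a group, and of the 8 hepatocyte markers 1 was higher and 6 lower. The most abundant marker in 12ON was Cps1 for hepatocytes, Spp1 for cholangiocytes, Stab2 for endothelium, Cd5l for Kupffer cells, Dcn for stellate cells, Nkg7 for lymphocytes, S100a9 for neutrophils and Hbb-bs for erythroid cells. In 7OFF vs 12ON 6 hepatocyte markers were higher (21339 to 25736.5 CPM in 7OFF), 8 cholangiocyte markers lower (51.7 to 85.8 CPM), 7 endothelial ones higher (298 to 369 CPM), 3 Kupffer markers lower (704.5 to 755 CPM), 3 lymphocyte markers higher, 2 stellate markers lower, and 1 erythroid marker higher and 5 lower (99.8 to 169 CPM). The part of these shifts and of the mitochondrial share in the values of Alb, Afp and the carriers was not tested. The fits with the share as a covariate cannot decide it in 12ON vs 12, in 7OFF vs 12ON or in any OFF group vs 12. In each of these the shares of the groups did not overlap.

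The genes most like Alb, Afp and Zbtb20 over the 18 livers were sought by Pearson's r of log2(CPM + 1) among 11547 genes, as a description with no test, since the livers share 6 groups. Alb was most like Afm (r = 0.969), then Enho (0.964), Gm42109 (0.958, which shares reads with Afm), Tspan31 (0.949) and Plbd1 (0.948). Enho, which encodes the secreted peptide adropin, averaged 1.58 CPM in 12ON and 26.1 CPM in group 12. Afp was most like Bex3 (0.929) and the mitotic genes Plk1 (0.924), Ccnb2 (0.921), Cdca3 (0.919) and Kif4 (0.919). Plk1, a mitotic kinase, averaged 24.2 CPM in 12ON and 2.53 CPM in group 12. Zbtb20 was most like Tpgs1 (0.876), Wasl (0.867), Chmp7 (0.858), Abcg2 (0.845) and Tulp4 (0.835), and without 7OFF replicate 1 these fell to 0.714, 0.679, 0.532, 0.482 and 0.443.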

How the data were processed

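Total liver RNA was sequenced as poly-A libraries with single reads of 50 nt, 1 library per mouse, per the labels' protocols. The submitters' processing notes name Trim Galore, TopHat2 and mm10, without versions. The deposited values are raw counts per gene from featureCounts 1.5.0-p1 over exons of Ensembl 82 (GRCm38), per the file headers, without strand, a minimum overlap of 10 bases, and a read counted for each gene it overlapped. The exon length of each gene comes from the deposited tables. Symbols were matched for 34599 of 34937 genes.

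Between replicates the counts differed with a chi-square per gene from 34 up to 311, so none was a copy of another. The replicate numbers did not pair the libraries. Counts were tested with edgeR 4.0.16 in R 4.3.3 (filterByExpr at a minimum count of 10, TMM, 1 quasi-likelihood fit over 18 libraries, 12 residual degrees of freedom, biological coefficient of variation 0.202, two-sided, Benjamini-Hochberg at 0.05) in 10 comparisons, after a check on simulated data. SE is the log2 fold change over the root of F. With 3 livers a group, CPM values have SD. DESeq2 1.42.0 and other scalings, covariates and left-out libraries were alternatives.

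The 10 genes, the lists and the tests were chosen with earlier results of these data known. The 10 genes were named in each comparison. From each list up to 3 called genes in each direction with the smallest p in 12ON vs 12 were named, with all tested neighbours of the family, the 5 genes most like Alb, Afp and Zbtb20 (mean of at least 4 CPM), and the most abundant marker of each list. Zhx1, Zhx3 and Zfhx3 were picked after their values were seen.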

Additional observations from a re-analysis of the deposited data

How the results depend on the processing

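Of 816 values of single genes under other settings, 722 kept their direction and, where the setting had a test, their side of the threshold. A further 80 lost their call, 8 gained one and 6 changed sign. The values were those of all 10 genes in 12ON vs 12, 3OFF vs 12ON and 7OFF vs 12ON. In the other comparisons only genes called in the main fit were included, so a call gained there is not among the 8. Differences of mean log2(CPM + 1) had no test and were judged by direction alone. Of 318 counts and log2 ratios of Alb to Afp, 268 stayed the same and 50 did not. Counts were held the same within 1.5 times, and log2 ratios when they moved by less than the SD of their group. The cause was not tested. On library totals with no TMM, 5 of the 10 genes were called in 12ON vs 12 (10531 of all genes) and 5 in 7OFF vs 12ON (9552). There Rbp4 (0.15), Zbtb20 (0.32) and Zhx2 (0.0277) changed sign in 12ON vs 12, and Zbtb20 in 3OFF vs 12ON (-0.14). Over all genes 0 were called in 1OFF vs 12ON and 138 in 2OFF vs 12ON. With the mitochondrial share as a covariate, 4 of the 10 genes were called in 12ON vs 12 (4117 of all genes, Zbtb20 at 0.24), 3 in 1OFF vs 12 (1848), 3 in 2OFF vs 12 (1901) and 1 in 3OFF vs 12 (731), and 417 genes in 7OFF vs 12, 3372 in 7OFF vs 1OFF and 0 in 1OFF vs 12ON. With a term for Xist, 0 genes were called in 1OFF vs 12ON. DESeq2 called 526 genes in 1OFF vs 12ON, 933 in 2OFF vs 12ON and 1678 in 7OFF vs 12, with 2 of the 10 genes in the last. With only the 2 groups fitted, 189 genes were called in 1OFF vs 12ON, 1888 in 3OFF vs 12 and 216 in 7OFF vs 12. The replicate numbers did not pair the libraries (correlations of -0.18 to 0.29). With the replicate block, 18 genes were called in 1OFF vs 12ON and 439 in 2OFF vs 12ON; of the 10 genes, Trf in 7OFF vs 12ON (adjusted p = 0.0519), Afp (0.0507) and Zhx2 (0.051) in 1OFF vs 12 and Ttr in 3OFF vs 12 (0.0591) lost their calls and Gpc3 in 7OFF vs 12ON gained one (0.0483).

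Without 1 library at a time, of the 10 genes 3 to 6 were called in 1OFF vs 12 and 1 to 3 in 3OFF vs 12 (1 without 3OFF replicate 1). The 3 in 1OFF vs 12 were without 1OFF replicate 1 or 2, where 4551 and 4397 of all genes were called. Over all genes the counts were 0 in 1OFF vs 12ON, 0 to 1505 in 2OFF vs 12ON (1505 without 2OFF replicate 2, 22 without 12ON replicate 1), 3708 to 5174 in 3OFF vs 12ON (3708 without 12ON replicate 2), 1787 to 2521 in 3OFF vs 12 (1787 without 3OFF replicate 1) and 350 to 1264 in 7OFF vs 12 (1264 without 7OFF replicate 3, but 350 and 468 without 7OFF replicates 1 and 2, and 370, 576 and 652 without replicates 1, 2 and 3 of group 12). Zbtb20 in 7OFF vs 12ON ran from -0.00492 without 7OFF replicate 1 to 0.80 without 7OFF replicate 3. From raw counts, not per kb, the log2 ratio of Alb to Afp was 13.1, 13.79 and 13.25 in 7OFF (13.62, 14.32 and 13.78 per kb) and 13.63, 13.29 and 13.12 in group 12 (14.15, 13.81 and 13.64).

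With 3 livers a group, precision is limited, most for Afp and Gpc3, whose SE is 0.63 to 0.75. Sex, strain and earlier activation are not given, and depth does not limit the abundant genes.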

Other observations

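Afp and H19, both held down by ZHX2 in adult mouse liver, were at different levels in 3OFF relative to group 12. Afp had 6.86 to 11.15 CPM in 3OFF and 7.57 to 10.25 CPM in group 12, whereas H19 had 6919 to 17289.8 CPM in 3OFF and 37.5 to 146 CPM in group 12. In 7OFF H19 was down to 125, 101 and 665 CPM.

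All 3 livers of 12ON lay above every liver of group 12 in both Afp and Gpc3, and 12ON replicate 3 had 65.2 CPM of Afp and 9.83 CPM of Gpc3. The 2 genes ranked the livers alike in groups 12, 1OFF and 7OFF but not in 12ON and 2OFF, and in 3OFF they shared only the highest liver. In 12ON the liver with the highest Afp (118 CPM) had the lowest Gpc3 (3.68 CPM), and in 2OFF the liver at 119.9 CPM of Afp had 1.84 CPM of Gpc3 while the liver at 18.8 CPM of Gpc3 had 54.4 CPM of Afp. These livers and the next genes were singled out after their values were seen. Among relatives of Zhx2, Zhx1 had 43.5 to 45.2 CPM in 12ON and 41.7 to 49.0 CPM in group 12, and Zhx3 60.9 to 77.2 CPM in 12ON and 63.0 to 72.4 CPM in group 12. In 7OFF replicate 1, where Zbtb20 had 169 CPM against 72.4 and 65.6 CPM in the other livers of the group, Rbp4 (2738.5 CPM), Hnf4a (927 CPM), Zhx3 (105 CPM) and Zfhx3 (15.2 CPM) were also the highest of their group, and Alb (47201 CPM) and Afm (258 CPM) the lowest. Gc (6277 CPM) and Zhx2 (20.1 CPM) were the highest there too and Trf (19403 CPM) the lowest, while Afp, Ttr and Gpc3 lay between the other livers.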
